A study of Bos taurus with 12 samples.

Results

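When preadipocytes of muscle turn into fat cells, the small RNAs that tune their gene expression change along with the mRNAs. The comparison here sets 3 libraries of bovine intramuscular preadipocytes before adipogenic induction (0 d) against 9 libraries taken 3, 6 and 9 d after it, over all miRNAs of the deposited matrix. A miRNA was taken up once per name and only with at least 10 raw counts summed over the 12 libraries, which left 1079 of 1330 names, among them 479 names beginning with bta, 432 names borrowed from other species and 168 candidates found on the genome alone. Because 1 library of the 0 d group stands apart from the other 2, the main results are given with and without it. Among the rises, miR-767 and miR-105a went from no read at 0 d to clear levels on every later day, the 4 arms of the miR-132 and miR-212 cluster rose together, and miR-210, miR-204 and miR-129 followed. Among the falls were miR-486 and miR-139, which lie in introns of genes that fell as well, and a set of names built on miR-1260.

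All 12 libraries come from total RNA of cultured cells labelled intramuscular adipocytes of Bos taurus, grown in DMEM-F12 with fetal bovine serum and antibiotics. Uninduced cells (0 d) were in growth medium, and induction began at 90% confluence with DEX, IBMX and insulin for 48 hours, after which the medium held insulin alone. The induced groups of 3 d, 6 d and 9 d, with 3 libraries each, were thus all sampled in the insulin medium. No uninduced cells of 3, 6 or 9 d were sequenced, so induction cannot be told apart from time in culture and from growth past confluence. The paper calls the replicates biological and describes the cells as the same batch. The labels do not say whether replicates are separate cultures or animals, so that a p here measures the spread between samples.

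miRNAs are short RNAs that guide Argonaute proteins to mRNAs through pairing of their seed, and the mRNAs they pair with are as a rule translated less or degraded. Many are cut from clusters or from introns of host genes, so that neighbours can share a transcript, and each hairpin can yield an arm from either side. In fat cell formation miRNAs act on the cell cycle, on insulin signalling and on the choice between the fat, bone and muscle fates.

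The sequences below are those on which the account turns, as deposited, with bases 2 to 8, the seed, in capitals. Names of the form R+1, L-1 or 1ss mark a form that differs from the reference by bases at an end or by 1 substitution, and in the text the species prefix and these marks are left out where no other form is meant. The first set shows risers that share a seed within each pair, miR-132 with miR-212-3p, miR-105a with miR-105b and miR-103 with miR-107, and with them miR-424-5p and miR-503-5p, whose seeds differ in the last base only:
bta-miR-132: tAACAGTCtacagccatggtcg
hsa-miR-212-3p_R+2: tAACAGTCtccagtcacggccac
bta-miR-105a: tCAAATGCtcagactcctgtggt
bta-miR-105b_R+1: tCAAATGCtcagactccttggtg
bta-miR-103: aGCAGCATtgtacagggctatga
bta-miR-107_R-1: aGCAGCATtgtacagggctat
bta-miR-424-5p_R+1: cAGCAGCAattcatgttttgaa
bta-miR-503-5p_R+3: tAGCAGCGggaacagtactgcag
Risers with a seed of their own follow, among them miR-212, the other arm of miR-212-3p, and miR-143 and miR-145, which share a transcript:
bta-miR-767_R+1: tGCACCATggttgtctgagcatgc
bta-miR-212: aCCTTGGCtctagactgcttact
bta-miR-210_L-1: cTGTGCGTgtgacagcggctga
bta-miR-204: tTCCCTTTgtcatcctatgcct
bta-miR-129_R-1: cTTTTTGCggtctgggcttgc
bta-miR-708: aAGGAGCTtacaatctagctggg
bta-miR-143_R-1: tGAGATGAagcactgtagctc
bta-miR-145: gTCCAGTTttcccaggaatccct
bta-miR-10172-3p_R-1: tCACTGGGcatcctctgcttt
miR-99a, miR-100 and miR-99b share 1 seed. With all libraries the first 2 were called and miR-99b was not, and without 0 d replicate 3 none of them was. miR-10a is shown beside them because its seed has the same first 4 bases:
bta-miR-99a-5p_R+1: aACCCGTAgatccgatcttgtg
bta-miR-100: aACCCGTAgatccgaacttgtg
bta-miR-99b: cACCCGTAgaaccgaccttgcg
bta-miR-10a_R-1: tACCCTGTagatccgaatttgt
The last set holds the falls, first 3 forms of miR-486, then 5 forms with the miR-1260 seed (miR-1260a not called with all libraries), then single seeds:
bta-miR-486: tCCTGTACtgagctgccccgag
hsa-miR-486-5p_R+2: tCCTGTACtgagctgccccgaggt
mmu-miR-486b-5p_R+2: tCCTGTACtgagctgccccgagtt
bta-miR-1260b: aTCCCACCactgccacca
cgr-miR-1260_R+1_1ss15AG: aTCCCACCgctgccgccaa
cgr-miR-1260_1ss17CA: aTCCCACCgctgccacaa
PC-3p-3021_1840: aTCCCACCgctgccgccat
hsa-miR-1260a: aTCCCACCtctgccacca
bta-miR-139: tCTACAGTgcacgtgtctccagt
hsa-miR-139-3p: tGGAGACGcggccctgttggagt
hsa-miR-125b-1-3p: aCGGGTTAggctcttgggagct
bta-miR-1246_L+1R+4: aAATGGATttttggagcagggagt
bta-miR-483_R+2: tCACTCCTctcctcccgtcttct

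Before the results, the libraries. Among the 0 d libraries, replicate 3 (below, 0 d replicate 3) is the shallowest, with 1438548 raw counts against 1704166 and 1969377 in the other 2 of its day and 2231391 to 4673382 in the induced libraries. Of 681 miRNAs with at least 100 counts, 111 lay over 2-fold above and 171 over 2-fold below the mean log2 level of the other 2 libraries, where replicate 1 gave 71 and 47 and replicate 2 gave 98 and 59. The miRNAs above were rich in G and C (median 60% of bases) and those below were not (median 47.6%). Its mean correlation with the other 2 libraries was 0.932, against 0.955 and 0.952 for them. One miRNA, the liver miRNA miR-122, had 295 reads in this library and 0 in each of the other 11. A second pattern crosses the days: 19 of the miRNAs tested were at 0 in exactly 0 d replicate 3, 6 d replicate 3 and 9 d replicate 2, 8 of them named miR-1260a. The 19 are not all separate, since pairs of miR-1260a, miR-2285, mir-6239 and mir-6240 names hold the same values in every library. The next of the 220 possible sets of 3 libraries held 6 (the 0 d group itself) and the one after held 3. What the 3 libraries with the 19 zeros share is not given in the labels. Its part in the results was not tested beyond leaving these 3 libraries out. Scaling also matters: the TMM factors were 1.13, 1.16 and 0.981 at 0 d and 0.874, 0.84 and 0.869 at 9 d, and leaving TMM out moves the median log2 fold change of all miRNAs by -0.168.

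A miRNA was called where its absolute log2 fold change was over 1 and its adjusted p under 0.05. With all 12 libraries 78 of 1079 miRNAs (7.23%) were higher in the induced libraries and 75 (6.95%) lower. Without 0 d replicate 3, 76 (7.04%) were higher and 49 (4.54%) lower. Between these 2 fits the number of falls moved more than that of rises. 65 rises and 36 falls were called both ways, 13 rises and 39 falls only with the library, and 11 and 13 only without it. Leaving out all 3 libraries that share zeros, a choice made after seeing the data, gave 82 rises (7.6%) and 58 falls (5.38%), and 64 rises and 33 falls stood in all 3 fits. Library totals without TMM shift the balance the other way, to 60 rises and 93 falls, so that 39.2% of calls are rises in place of 51%. With RLE factors that share is 39%, and with 1 mean for all 9 induced libraries it is 63.5%. In the same 12 libraries 98 miRNAs (9.08%) had every induced library above every 0 d library and 60 (5.56%) had every one below. Leaving 0 d replicate 3 out of this comparison, at the scaling of all 12 libraries, gave 124 (11.5%) and 87 (8.06%). With fewer 0 d libraries to lie beyond, these counts cannot be smaller. Called rises were about as rich in G and C as all miRNAs tested (median 50.0% and 52.6% of bases), and called falls were richer (59.1%, or 57.1% without 0 d replicate 3).

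**Figure D1:**
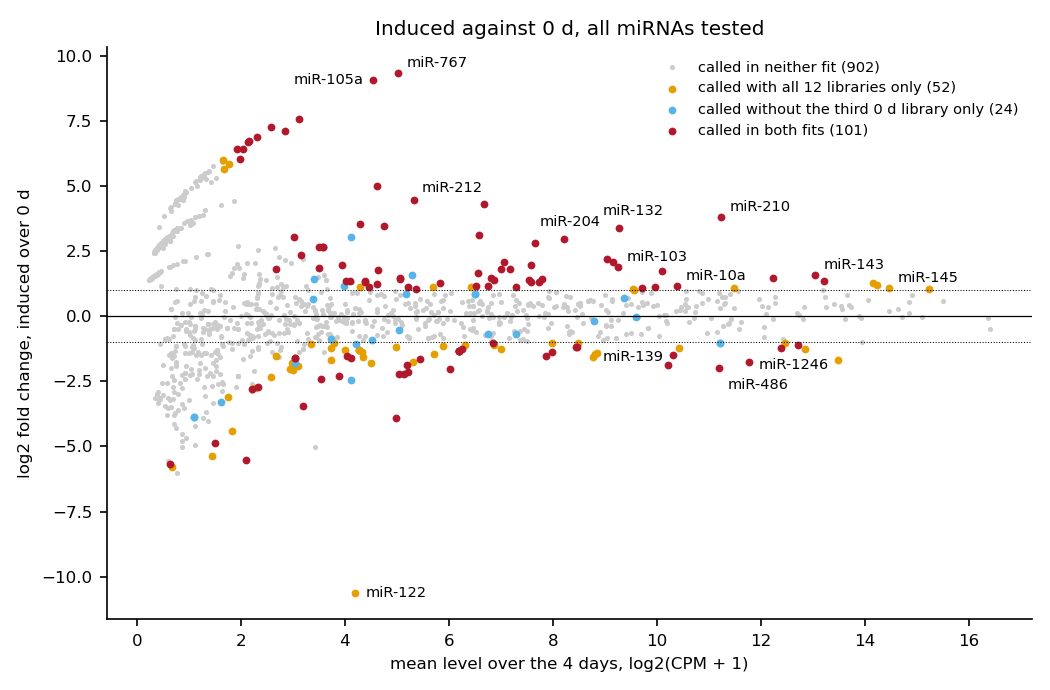
Log2 fold change of each miRNA tested, induced over 0 d with all 12 libraries, against its mean level over the 4 days; colours show whether it was called with all libraries, without 0 d replicate 3, or both, and dotted lines mark the fold threshold.

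The scatter of fold change by level shows the calls of both fits spread over all levels, with those that need 0 d replicate 3 mostly among the falls. Plotting each miRNA's fold change with that library against the one without it puts most rises on the diagonal and most lost falls above it.

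**Figure D2:**
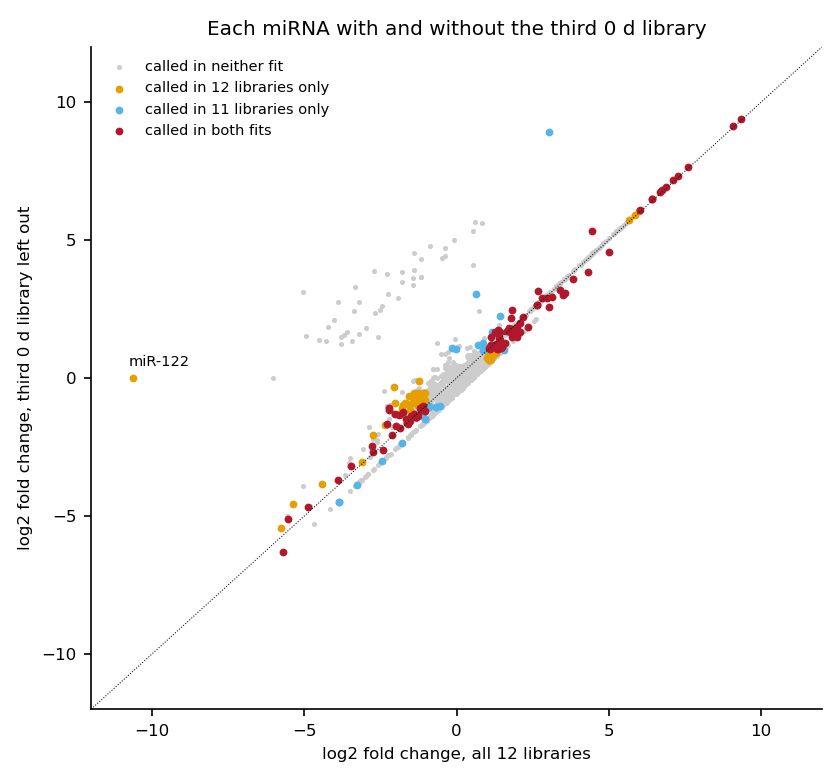
Log2 fold change of each miRNA with all 12 libraries (horizontal) and with 0 d replicate 3 left out (vertical); the dotted line marks equal values, and miR-122 falls to 0 because its reads lie in that library alone.

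2 neighbours on the X chromosome rose from no read at 0 d. Levels are given in CPM after TMM scaling. miR-767 was at 0, 0 and 0 CPM in the 0 d libraries and at 5.12 to 85.2 (median 45.5) in the 9 induced. Its neighbour miR-105a was at 0, 0 and 0 and then at 7.87 to 49.8 (median 35.8). Every induced library held reads of both and no 0 d library held any, and the level climbed from 3 d over 6 d to 9 d. In other species these miRNAs lie in an intron of the receptor gene GABRA3 and are best known from germ cells and tumours. Against 3 counts per 0 d library the rise is at least 25.2-fold for miR-767 (adjusted p 1.55e-06) and at least 17.7-fold for miR-105a (adjusted p 1.17e-06). miR-105b, which shares the seed of miR-105a, is at 0 at 0 d and from 0 to 17.7 (median 11.1) after induction, at least 6.17-fold (adjusted p 0.00239). Without 0 d replicate 3 all 3 stay called, since that library holds no read of them either.

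miR-132 and miR-212, neighbours on chromosome 19 and known as targets of the cAMP-responsive factor CREB, rose in all 4 arms tested (beside 7.23% of all tested). miR-132 was at 88.9, 81.7 and 51.0 CPM at 0 d and at 547 to 1031 (median 806) in the induced libraries. miR-212-3p, with the same seed, went from 11.4, 7.02 and 0 to between 82.9 and 194 (median 127), and miR-212 from the other arm from 0, 2.20 and 4.96 to between 27.2 and 72.5 (median 55.6). For all of them the lowest induced library lay well above the highest 0 d library, and 6 d was about as high as 9 d or higher. The log2 fold change was 3.40 for miR-132 (standard error 0.21, adjusted p 7.82e-08), 4.32 for miR-212-3p (standard error 0.50, adjusted p 3.07e-05) and 4.45 for miR-212 (standard error 0.50, adjusted p 2.30e-05), or 3.20, 3.83 and 5.33 without 0 d replicate 3. miR-212-3p spans 3.83 to 4.997 with 1 library left out, and miR-212 3.84 to 5.33. miR-132-5p, an arm chosen after its values were seen, gave 3.56 from low levels (adjusted p 0.00239). At 0 d only replicate 2 holds reads of it, and the value spans 2.99 to 9.14 with 1 library left out. Without 0 d replicate 3 the median over the 4 arms is 3.51 in place of 3.94, beside a median of 0.20 in place of 0.12 over all miRNAs tested.

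miR-210, the miRNA best known for its response to low oxygen, went from moderate to high levels. The 0 d libraries held 234, 240.2 and 139.5 CPM, and the induced ones 1495 to 4249 (median 3789). All 9 were above all 3, with 6 d and 9 d above 3 d (log2 fold change 3.81, standard error 0.20, adjusted p 3.31e-08, 3.60 without 0 d replicate 3). Its other arm, miR-210-5p, chosen after its values were seen, went from 31.7, 33.4 and 40.4 to 133 to 334 (median 313), again without overlap (log2 fold change 2.79, adjusted p 1.02e-07, 2.90 without 0 d replicate 3). miR-204, reported to favour fat over bone in marrow stromal cells, was at 47.3, 53.6 and 43.2 CPM at 0 d and at 317 to 479 (median 362) later. It was high from 3 d on with little change after (log2 fold change 2.98, standard error 0.18, adjusted p 7.82e-08, 2.91 without 0 d replicate 3). Its low 3p arm gave 3.03 (adjusted p 0.0138), but at 0 d only replicate 1 holds reads of it, and the value spans 2.40 to 7.75 with 1 library left out. miR-129, linked elsewhere to slower cell division, had 13.5, 15.8 and 9.21 CPM at 0 d and 74.4 to 196 (median 108) when induced. It peaked at 6 d, where all 3 libraries exceeded those of 3 d and 9 d (log2 fold change 3.13, standard error 0.22, adjusted p 2.43e-07, 2.95 without 0 d replicate 3). miR-129 maps to 2 hairpins. miR-129-3p from the one on chromosome 15 gave 2.19 (standard error 0.16, adjusted p 5.40e-07, 2.21 without 0 d replicate 3), and miR-129-1-3p from the one on chromosome 4 was not called (-0.29).

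**Figure D3:**
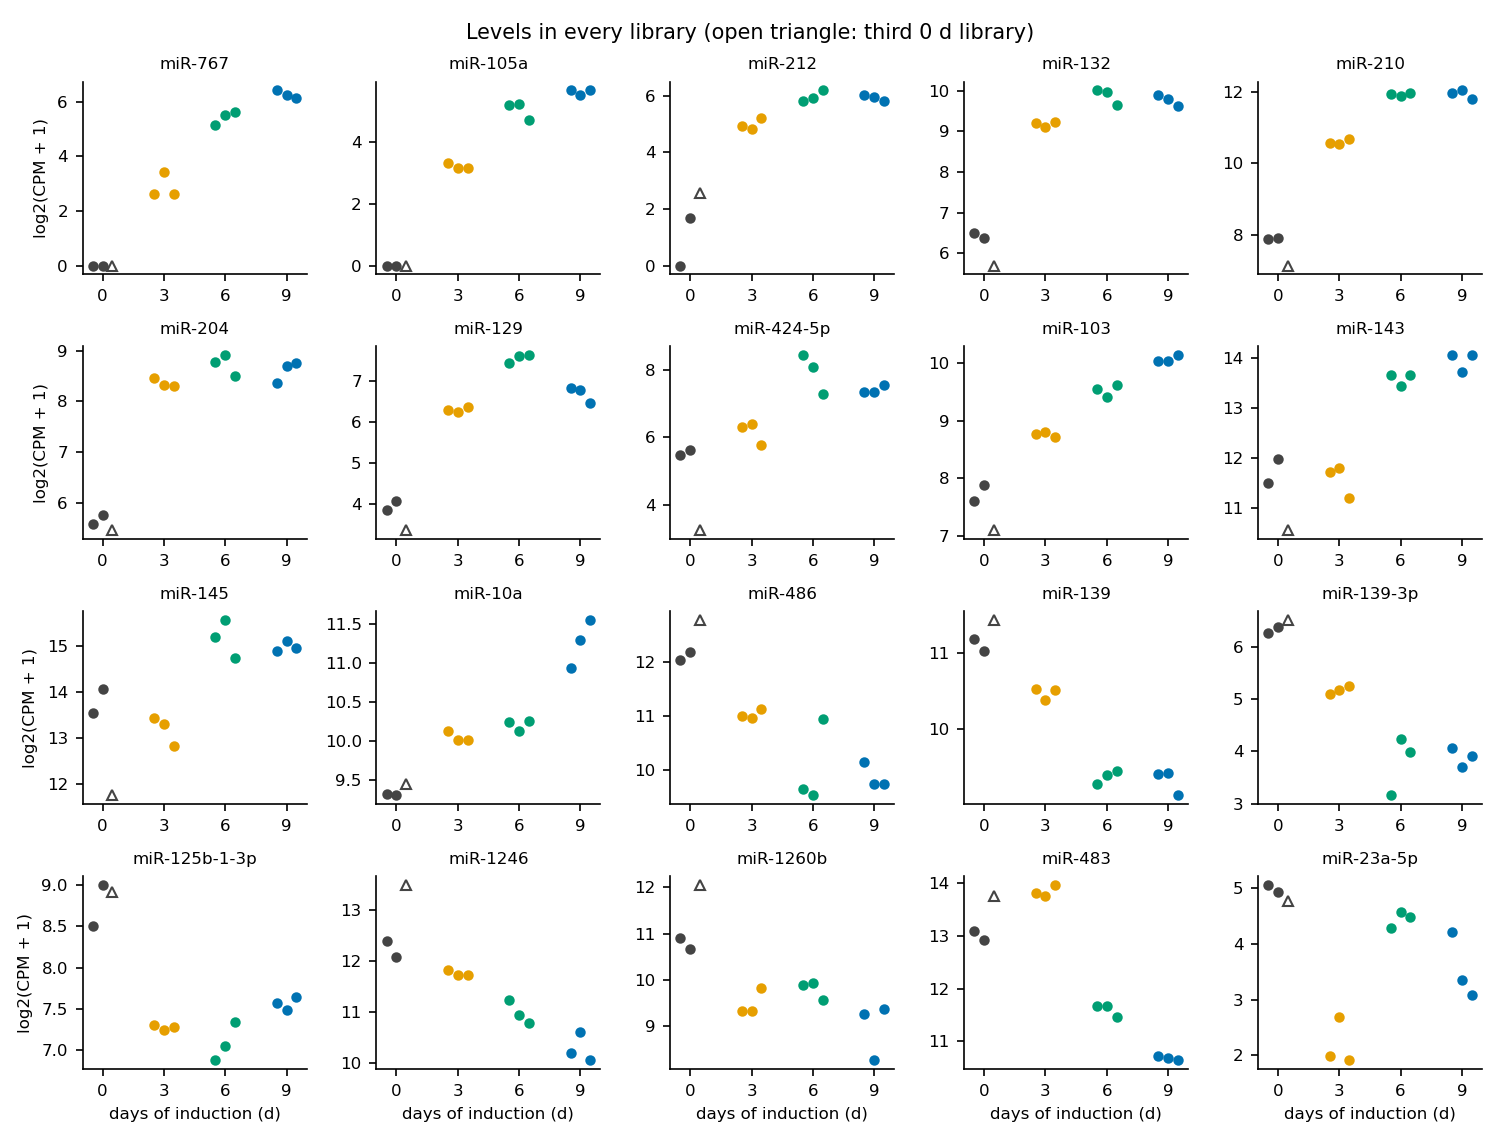
Level of selected miRNAs in every library by day of induction, log2(CPM + 1) after TMM scaling; filled points are libraries and the open triangle is 0 d replicate 3.

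The other 5 of the 10 largest rises without overlap between the groups sit at low levels. 4 of these 5 rank there only by fitted values over 0 counts. miR-664-5p was at 0, 2.20 and 0 CPM at 0 d and at 16.2 to 52.6 (median 24.2) after induction, highest at 9 d (log2 fold change 4.998, standard error 0.59, adjusted p 3.58e-05, 4.57 without 0 d replicate 3). At 0 d only replicate 2 holds reads of it, and the value spans 4.43 to 9.41 with 1 library left out. The other 4 had no read at 0 d, so that leaving out 0 d replicate 3 takes no read from them. Both arms of miR-11995 were seen in every induced library, at 4.27 to 9.30 CPM (median 6.14) and 2.10 to 7.23 (median 3.32), so at least 3.98-fold (adjusted p 3.30e-04) and at least 2.26-fold (adjusted p 0.00385). miR-12060 was at 1.71 to 8.87 (median 4.84), at least 3.17-fold (adjusted p 0.00165). miR-2284ab, the only called member of the cattle family of miR-2284 and miR-2285 (1 of 28 tested, beside 7.23% of all), was at 2.41 to 6.34 (median 4.502), at least 2.77-fold (adjusted p 0.00141). No role is given here for these 4. In all 14 of the 78 called rises had no 0 d library above 3 counts, and for them only such bounds hold. Those with no read at 0 d passed the filter of 10 counts through the induced libraries alone, which are more in number and deeper. The filter thus favours rises of this kind, and their adjusted p is to be read with that limit. Of the 75 called falls 3 had a group at or under 3 counts.

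On the X chromosome lies also the cluster of miR-424, miR-503, miR-450 and miR-542, whose first 2 members slow the cell cycle. 5 of its 11 tested arms were called higher and none lower (beside 7.23% and 6.95% of all tested), with a median log2 fold change of 1.41 (1.13 with arms absent at 0 d set to their bounds), beside 0.12 (-0.30) over all tested. Of these calls, 4 were made in the fit without 0 d replicate 3. A bound sets a group with no library above 3 counts at 3 counts per library. Where the other group is also low, the bound can have the opposite sign to the fitted value, so a median with bounds is not a typical fold. miR-424-5p was at 43.7, 48.3 and 8.50 CPM at 0 d and at 53.7 to 344 (median 159.8) in induced libraries. 0 d replicate 3 is far below the other 2, and the 6 d libraries hold the 2 highest values (log2 fold change 2.09, standard error 0.40, adjusted p 0.00193, 1.66 without 0 d replicate 3). Of this cluster 4 more arms were chosen after their values were seen. miR-503-5p stood at 67.1, 74.2 and 77.2 CPM at 0 d and was at 89.2 to 416 (median 193) later, with log2 values of 1.48, 2.34 and 0.40 at 3, 6 and 9 d, so that the 9 d libraries lie only a little above those of 0 d. miR-424-3p and miR-503-3p, at 1.73 and 1.37 over the 3 days, also peaked at 6 d. The call of miR-542-5p (1.13, adjusted p 0.0334) is lost without 0 d replicate 3 (0.75), without TMM (0.93) and with most single libraries left out.

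miR-103 and miR-107, which act on insulin sensitivity in fat and liver and share a seed, both rose. miR-103 was at 193, 235 and 136 CPM at 0 d and at 418 to 1126 (median 748) after induction, and miR-107 went from 96.2, 113 and 55.3 to 167 to 307 (median 223). Neither overlaps 0 d, and both climb with each later day (log2 fold change 1.89 and 1.32, standard error 0.18 and 0.20, adjusted p 3.91e-06 and 3.37e-04). 0 d replicate 3 is the lowest of its day for both, and without it the values are 1.71 and 1.08. miR-708 was above 0 d at 3 d and higher still at 6 and 9 d: 68.1, 57.1 and 44.6 CPM at 0 d, then 129 to 344 (median 260.0), every induced library above every uninduced one (log2 fold change 1.98, standard error 0.19, adjusted p 5.17e-06, 1.84 without 0 d replicate 3). In the miR-181 family, known from immune cells and from muscle cell maturation, 2 of 12 names, some of which hold the same values, were called higher (beside 7.23% of all tested), with a family median of 0.25 that turns to -0.09 without 0 d replicate 3. miR-181a-3p went from 49.4, 59.7 and 19.1 CPM to 66.8 to 312 (median 142), rising step by step to 9 d (log2 fold change 1.82, adjusted p 3.30e-04, 1.49 without 0 d replicate 3). The abundant miR-181a, chosen after its values were seen, gave 1.36 (adjusted p 8.11e-04, 1.07 without 0 d replicate 3).

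Some rises came only after 3 d. miR-143, one of the first miRNAs tied to fat cell formation, was at 2881, 4027 and 1488 CPM at 0 d and spanned 2329 to 17019.9 (median 12834) in the induced libraries. The 3 d libraries lie among those of 0 d and only 6 d and 9 d are above, with log2 values of 0.14, 2.13 and 2.50 by day and 1.59 over the 3 days (adjusted p 4.70e-04, 1.29 without 0 d replicate 3). miR-145 from the same transcript, known from smooth muscle and reported to hold fat cell formation back, was at 11898, 17126 and 3421 CPM at 0 d and 7197 to 48506 (median 30281) later. It too was at the 0 d level at 3 d and high at 6 and 9 d, but its 0 d replicate 3 is several times below the other 2. Its call (1.06, standard error 0.35, adjusted p 0.0425) does not stand without that library (0.64), without TMM (0.85) or with RLE factors (0.95). The other arm, miR-143-5p, chosen after its values were seen, shows the same late rise from 48.3, 47.0 and 45.3 CPM, by -0.14, 1.80 and 1.88 at 3, 6 and 9 d (1.18 over the days and 1.15 without 0 d replicate 3).

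miR-199a-5p, an abundant miRNA of connective tissue, went from 9386, 11799 and 3052 CPM at 0 d to 9089 to 35136 (median 18876), with 9 d highest. Its 3 d libraries overlap those of 0 d, and the call (1.29, adjusted p 0.0066) is lost without 0 d replicate 3 (0.90). miR-10a, which lies among the HOXB genes that pattern the body axis, was at 638, 630.0 and 697 CPM at 0 d and 1027 to 2987 (median 1206) later. Here the 3 uninduced libraries agree, and the rise is largest at 9 d (log2 values 0.69, 0.85 and 1.92, 1.15 over the 3 days, standard error 0.15, adjusted p 8.10e-05). It stays called without 0 d replicate 3, but not without TMM (0.997).

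Family members with 1 seed were not always called together, and the differences between them were not tested. In the family of miR-99 and miR-100, which acts on mTOR and growth factor signalling, 3 of 5 names were called higher with all libraries (beside 7.23% of all tested), 1 without 0 d replicate 3 and 1 without TMM. miR-100 was at 21940.1, 21902 and 18287 CPM at 0 d and 30903 to 69076 (median 39739) later. All induced libraries were above all 0 d ones and 9 d was highest, yet the log2 value of 1.05 (standard error 0.13, adjusted p 5.51e-05) is just past the threshold and drops under it in several other settings, among them that without 0 d replicate 3 (0.96). miR-99a-5p, chosen after its values were seen, gave 1.201 (0.83 without that library), and its 3p arm 1.45 (1.22). miR-99b, the most abundant of them, was at 76447, 75547 and 109258 CPM at 0 d and 65531 to 125842 (median 79526) later, with overlap on every day, and was not called (-0.07, adjusted p 0.855).

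miR-191 and miR-425 share the gene DALRD3, and 4 of their 4 arms were called higher (beside 7.23% of all tested), 3 without 0 d replicate 3, and 1 without TMM or with RLE factors. With all libraries 3 of the 4 values lie close to the threshold. miR-191 itself was at 2388, 2859 and 937 CPM at 0 d and 4196 to 8305 (median 5211) later. It was highest at 3 d and lower at 6 and 9 d, without overlap with 0 d (log2 fold change 1.45, 1.10 without 0 d replicate 3, adjusted p 0.00117). miR-191-3p gave 1.12 (1.21 without 0 d replicate 3), miR-425-3p 1.11 (1.13) and miR-425-5p 1.01, the last lost without 0 d replicate 3 (0.74). Of the cluster of miR-192, miR-194 and miR-215, known from gut and liver, 3 of 6 were called higher (beside 7.23% of all tested), 4 without 0 d replicate 3 and 1 without TMM. The low miR-194-3p had no read at 0 d and 0 to 8.53 CPM later (at least 2.70-fold, adjusted p 0.0179), with 1 of 9 induced libraries also at 0. miR-194 (form with the suffix R+1), chosen after its values were seen, gave 1.14 (adjusted p 8.58e-04, 1.18 without 0 d replicate 3), with 0.98 without TMM. The form without a suffix gave 1.05 and was called with and without 0 d replicate 3. miR-361, in the gene CHM, gave 1.08 (adjusted p 0.0385); 0 d replicate 3 is far below the other 11 libraries, and without it the value is 0.64 and not called.

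Other called rises were of forms at low levels. A variant of miR-320b went from 10.9, 7.90 and 6.38 CPM to 21.7 to 38.7 (median 29.8), a form of miR-22-3p from 10.9, 7.90 and 7.79 to 14.8 to 38.9 (median 24.1), and miR-148a-5p from 31.7, 23.7 and 21.3 to 24.8 to 87.8 (median 78.2). The first 2 do not overlap 0 d, and miR-148a-5p overlaps it at 3 d. Their log2 fold changes were 1.77, 1.35 and 1.26 (adjusted p 3.30e-04, 0.00278 and 0.00104), or 1.63, 1.27 and 1.15 without 0 d replicate 3. let-7g-3p gave 1.36 (adjusted p 0.0103, 1.59 without 0 d replicate 3), with 3 d close to 0 d. In the large imprinted cluster between DLK1 and DIO3, a placental and muscle growth locus, 6 of 94 arms were called higher and 1 lower, where 7.23% and 6.95% of all tested were (8 and 0 without 0 d replicate 3), with a median of 0.42 (0.29 with bounds, 0.32 without that library). The largest called rise there was the 3p form of miR-134, from 0, 2.63 and 3.54 to 9.82 to 17.1 CPM (log2 fold change 2.66, adjusted p 0.00387, 3.17 without 0 d replicate 3, 2.07 to 3.17 with 1 library left out), and the only fall a low form of miR-433-3p (-3.11, adjusted p 0.037). The latter keeps its size but not its call without 0 d replicate 3 (-3.05).

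**Figure D4:**
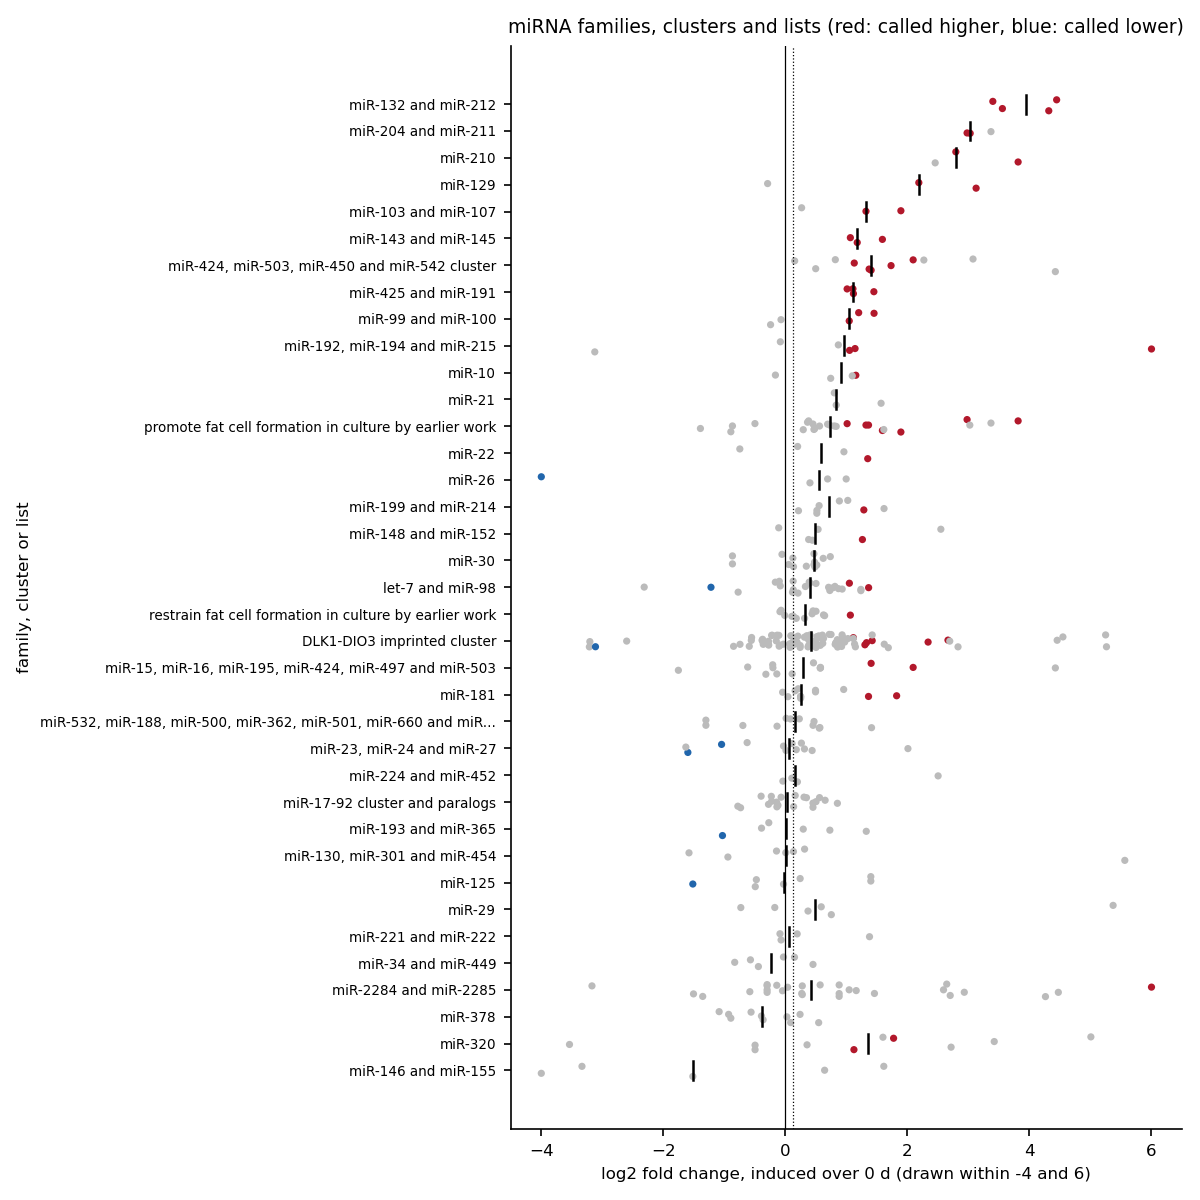
Log2 fold change of every tested member of the families, clusters and role lists with at least 3 members; red points were called higher, blue lower, grey neither, bars mark medians, and the dotted line is the median of all miRNAs tested.

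The strip of families shows lists without a call. No member of the miR-17-92 cluster and its paralogs (20 tested, median 0.03, -0.12 without TMM, 0.12 without 0 d replicate 3), of miR-30 (15, 0.47, 0.10 without that library), of miR-29 (6, 0.48, 0.23 without it and -0.03 with bounds) or of miR-221 and miR-222 (4, 0.06, -0.14 without TMM, -0.26 without 0 d replicate 3) was called. In the miR-378 family, whose member miR-378 lies in PPARGC1B and acts on energy use, none of 10 was called with all libraries and TMM and 1 was lower without it. Of 25 arms that earlier work reports to promote fat cell formation in culture 7 were called higher and 0 lower (6 and 1 without TMM, 7 and 2 with DESeq2), where 7.23% and 6.95% of all tested were, and of 13 reported to restrain it 1 was called, miR-145, and 0 without 0 d replicate 3. The list medians were 0.73 and 0.31, or 0.46 and 0.17 without that library, beside 0.12 and 0.20 over all tested.

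miR-486, a miRNA of muscle and red blood cells, fell. It was at 4160.1, 4645 and 6982 CPM at 0 d and at 737 to 2234 (median 1127) in the induced libraries. It fell at 3 d and was lower at 6 and 9 d except in 6 d replicate 3, which stayed at the 3 d level, and no induced library reached the 0 d range. The log2 fold change was -1.996 (standard error 0.24, adjusted p 4.08e-05), and -1.74 without 0 d replicate 3. The 2 other forms with its seed fell as well, by 2.41 and 1.26 on the log2 scale (adjusted p 0.0173 and 4.70e-04, -2.63 and -1.37 without 0 d replicate 3). The value of the first spans -4.32 to -1.98 with 1 library left out. miR-139 was at 2317, 2078 and 2757 CPM at 0 d and 558 to 1469 (median 682) later, and its 3p arm went from 75.9, 82.5 and 89.96 to 7.92 to 37.2 (median 15.8). Both stepped down at 3 d and again at 6 d, with no overlap and with the 3 uninduced libraries close together (log2 fold change -1.50 and -2.13, standard error 0.12 and 0.21, adjusted p 1.18e-06 and 7.19e-06). Without 0 d replicate 3 the values are -1.38 and -2.07. miR-139 is known to act on cell movement and growth factor signalling.

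miR-125b-1-3p, the minor arm of a hairpin whose main arm is among the most abundant miRNAs here, was at 362, 511 and 482 CPM at 0 d and 116 to 199 (median 156) later. All 9 induced libraries lie under all 3 uninduced ones (log2 fold change -1.52, standard error 0.14, adjusted p 4.47e-06, -1.47 without 0 d replicate 3). miR-1246, a name whose reads can also come from a small nuclear RNA, was at 5438, 4359.7 and 11569 and then 1066 to 3662 (median 1968), lower with each later day. Its 0 d replicate 3 is more than 2-fold above the others, and the value moves from -1.77 (adjusted p 5.94e-05) to -1.23 without it, still called. 2 arms of the cluster of miR-23, miR-24 and miR-27 were low at 3 d above all. miR-23a-5p was at 32.2, 29.4 and 26.2 CPM at 0 d and 2.76 to 22.6 (median 9.24) when induced. Its log2 values were -2.94, -0.49 and -1.36 at 3, 6 and 9 d (-1.60 over the days, -1.67 without 0 d replicate 3). miR-27a-5p, chosen after its values were seen, gave -3.02, 0.06 and -0.17 (-1.05 and -1.18). At 6 and 9 d it lay among the 0 d libraries. The main arms of these hairpins were not called, and miR-27b is given below.

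miR-483, in an intron of the growth factor gene IGF2, was at 8677, 7751 and 13859 CPM at 0 d and 1591 to 15993 (median 3255) later. The 3 d libraries are about as high as 0 d replicate 3 or higher, and those of 6 and 9 d are under 0 d, with log2 values of 0.55, -1.70 and -2.63. Its mean over the days (-1.26, adjusted p 4.08e-05) is called, but not without 0 d replicate 3 (-0.96). miR-184, chosen after its values were seen, had 632, 472 and 1391 CPM at 0 d and 176 to 589 (median 241) later, with 3 d near 0 d and 6 and 9 d lower. Here too the call (-1.57) ends without 0 d replicate 3 (-0.98). miR-365-5p, 337, 336 and 527 CPM at 0 d and 117 to 283 (median 205) later, does not overlap 0 d, and its log2 value is -1.03 with and -0.78 without that library, in which case it is not called. For let-7d-3p that library is over 4-fold above the other 2: 1076, 1142 and 4957 CPM at 0 d, 619 to 1500.2 (median 1004) later, and -1.22 with against -0.11 without.

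Names built on miR-1260, a list drawn up after its values were seen, make up 13 of the 75 falls. Of 42 tested, 0 were higher, and 7 were lower without 0 d replicate 3, where 6.95% and 4.54% of all tested were lower in these 2 fits. The count is 17 with RLE factors and 24 with DESeq2. The list has a median of -1.56 (-1.01 without it). Many of them differ by an end base or 1 substitution, so that a read can fit several, and they are no independent members. miR-1260b was at 1911, 1624 and 4223 CPM at 0 d and 308 to 982 (median 665) later. 0 d replicate 3 is the highest of all 12, yet the other 2 also lie above every induced library (log2 fold change -1.88, adjusted p 1.57e-04, and -1.33 without 0 d replicate 3). The candidate PC-3p-3021 with the same seed went from 88.9, 86.9 and 259 to 11.6 to 52.1 (median 45.2), -2.03 with and -1.32 without. A miR-1260 form with 1 base more gave -2.29 and -1.65, and one with a changed base near its end -1.78 and -1.31, the latter not called. The most abundant form, a miR-1260b name short of 1 base and with 1 substitution, was at 14781, 12617 and 43841 CPM at 0 d and 4198 to 10419 (median 7267) later, with a call (-1.69) that ends without 0 d replicate 3 (-0.90). miR-1260a runs the other way in 0 d replicate 3: 5335, 4669 and 1041 CPM at 0 d and 311 to 4091 (median 1644) later, low in the same 3 libraries that share zeros, -1.04 and not called with all libraries and -1.48 without 0 d replicate 3. The last 2 forms were chosen after their values were seen.

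Of 168 candidates found on the genome alone 17 were lower and 3 higher, where 6.95% and 7.23% of all tested were, or 11 and 1 without 0 d replicate 3. Their median log2 fold change was -0.62, and it turns to 0.16 without that library. With bounds the median was -1.25, beside -0.30 over all tested, and neither of these is a typical fold. PC-3p-17328 was at 69.1, 73.8 and 80.0 CPM at 0 d and 5.26 to 42.5 (median 18.9) later, least changed at 6 d (log2 fold change -1.87, standard error 0.32, adjusted p 8.58e-04, -1.82 without 0 d replicate 3). PC-3p-6202 was at 38.0, 36.9 and 159 and then 7.90 to 28.2 (median 16.6), and since its 0 d replicate 3 is far above the others its value goes from -2.22 to -1.17 without it. Both had every induced library below every 0 d library.

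Sums over all names with 1 seed do not depend on how reads were split among those names. Of 802 seed families tested, 54 (6.73%) were higher and 51 (6.36%) lower, against 53 (6.61%) and 37 (4.61%) without 0 d replicate 3. 42 and 29 stood both ways. Among the families of 2 or more names, the 5 largest rises are those of miR-105 (0 CPM in all 3 libraries at 0 d), miR-210 (log2 fold change 3.83, 3.59 without 0 d replicate 3), miR-132 with miR-212-3p (3.52 and 3.27), miR-204 (3.002 and 2.90) and miR-129-3p (2.15 and 2.13), all called without 0 d replicate 3 as well. The 5 largest falls are that of miR-486 (-1.94, -1.74 without that library) and 4 families of 64.5 to 109 raw counts in all: those of PC-5p-37665 with miR-302b, of mir-6236, of miR-2137 and of a miR-1260 form. The first 2 of these 4 stay called without 0 d replicate 3 and the last 2 do not, though their values stay large (-4.14 and -3.60 for miR-2137, -2.79 and -2.26 for the miR-1260 form). In the first, PC-5p-37665 was at 5.199, 7.90 and 14.2 CPM at 0 d, at 0 in all libraries of 3 d and 9 d, and present in all 3 of 6 d. The family of mir-6236 was at 4.78, 8.34 and 0 CPM at 0 d and at 6.00, 4.17 and 3.47 at 3 d, with a log2 value of 0.04 there. It was at 0 in all libraries of 6 and 9 d, so that it overlaps 0 d.

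The study built a network of competing RNAs around 7 miRNAs, a choice made on these samples. 3 of the 7 were called here (beside 14.2% of all tested in either direction): miR-486, described above, fell, and miR-10172-3p and miR-6518 rose. miR-10172-3p was at 22.9, 31.6 and 77.9 CPM at 0 d and 109 to 203 (median 160.0) later. 0 d replicate 3 is the highest of its day but under every induced one, and the value grows from 1.81 (standard error 0.32, adjusted p 9.60e-04) to 2.48 without it. miR-6518 was at 4.68, 10.98 and 17.0 and then 7.67 to 46.3 (median 31.7), with 3 d inside the 0 d range and 6 and 9 d above it (1.25, adjusted p 0.0258, 1.68 without 0 d replicate 3, not called with RLE factors, 1.09). miR-27b, reported to hold fat cell formation back, was at 9965, 11653 and 8925 CPM at 0 d and 9333 to 20132 (median 14577) later, above 0 d at 6 and 9 d only, and passed no fold threshold (0.44, adjusted p 0.0236, 0.35 without 0 d replicate 3). miR-330 (0.41, 0.41 without that library), miR-433 (-0.37, -0.44) and miR-7857-5p (-0.56, -0.57) were not called either, though their groups do not overlap. miR-7857-5p, for one, lay at 112 to 153 CPM against 194, 209 and 194. miR-330-5p, from the other arm, had no read at 0 d and 8 of 9 induced libraries with some, at least 2.51-fold (adjusted p 0.0191). The study compared each induced day with uninduced cells on its own, whereas a call here rests on the mean of the induced days. A missing call here is therefore no test of the choice made by the study. The paper also followed the uncalled miRNAs of the network by qRT-PCR and reports trends close to those of its sequencing.

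Of the 10 most abundant miRNAs 1 was called with all libraries, miR-100, where 14.2% of all tested were called in either direction. Without 0 d replicate 3 miR-100 was not called (0.96). miR-125b, the most abundant with miR-99b, was at 88895, 80943 and 160144 CPM at 0 d and 56158 to 100606 (median 78915) later, with 0 d replicate 3 above all others (-0.49, -0.12 without it). miR-21-5p, high in dividing and scarring tissue, was at 18899, 28902 and 10203 and 18455 to 45464 (median 34279.7). It overlaps 0 d at 3 d, and its value of 0.83 (adjusted p 0.0422, 0.53 without 0 d replicate 3) is under the threshold. miR-127 (0.58, adjusted p 0.00431, 0.62 without that library) and miR-92a (0.56, adjusted p 0.00846, 0.41) were above 0 d in all 9 induced libraries by less than the threshold. let-7b (0.13), miR-423-3p (-0.03) and miR-125a (-0.03) overlap between the groups and change sign with the setting, and miR-193b, a brown fat miRNA, gave 0.29, lower than 0 d at 3 d and higher at 6 and 9 d. For miR-26a, miR-155 and miR-378, chosen after their values were seen, the values were 0.996, 0.64 and -0.89, or 0.66, 0.32 and -0.70 without 0 d replicate 3, and none was called in these 2 fits.

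The 3 induced days are not alike. 81 miRNAs (7.51%) differed among 3, 6 and 9 d by over 1 log2 unit between 2 of the days at an adjusted p under 0.05, a contrast of the induced days alone. The 0 d libraries still enter its scaling and its spread, and without 0 d replicate 3 the count is 118. Of the called miRNAs 20 rises and 28 falls were among them, and 49 rises and 35 falls were past the fold threshold on every induced day. The 3 contrasts of a day with 0 d share the 0 d libraries, so their agreement is no separate support.

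Some of the named miRNAs lie in introns, and the mRNA table gives their host genes in FPKM. Of 11 host genes in a list of known pairs that hold a called miRNA, 10 were tested, and 5 were called, each in the direction of its miRNA, where over all 15401 mRNAs 3.43% were higher and 8.87% lower. ANK1, host of miR-486, was at 61.9, 66.8 and 68.8 FPKM at 0 d and 7.55 to 21.9 (median 11.02) after induction. PDE2A, host of miR-139, was at 6.48, 5.92 and 6.85 and 0.370 to 1.55 (median 1.24). In both every induced library is under every uninduced one. ANK1 fell (log2 fold change -2.36, adjusted p 1.01e-04), and so did PDE2A (log2 fold change -2.52, adjusted p 1.48e-06). TENM4 with miR-708 went from 6.44, 6.55 and 5.47 to 11.7 to 22.1 (median 17.3), and TRPM3 with miR-204 from 0.0100, 0.210 and 0.0900 to 0.230 to 3.34 (median 0.370). TENM4 was highest at 3 d where miR-708 was lowest of the induced days, and TRPM3 was highest at 3 d and nearer to 0 d at 6 and 9 d (log2 values 3.31, 1.07 and 1.25), where miR-204 stayed high. Both genes were called, TENM4 (log2 fold change 1.45, adjusted p 1.61e-06) and TRPM3 (log2 fold change 1.88, adjusted p 0.00187), but TRPM3 loses its call with a pseudocount of 1 (0.63). MYH7, a slow muscle myosin and host of miR-208b, was at 74.4, 74.1 and 76.5 FPKM at 0 d and 2.91 to 25.9 (median 22.1) later, lowest at 3 d (log2 fold change -2.61, adjusted p 2.75e-09). miR-208b was at 2.60, 3.95 and 0 CPM at 0 d and 0 in all 9 induced libraries (adjusted p 0.0472, not called in most other settings). PANK3, host of 1 hairpin of miR-103, and PANK1, host of miR-107, were not called. The miRNA table places miR-103 on chromosome 13, at another hairpin whose host was not in the list. PANK1 gave -0.78 while its miRNA rose. DALRD3 with miR-191 and miR-425 gave 0.14, CHM with miR-361 -0.44, IGF2 with miR-483 -0.95, and EML2 is not in the table. Among listed hosts of miRNAs that were not called, 2 were called lower, where 8.87% of all mRNAs were. They were CTDSPL with miR-26a (-1.50, adjusted p 0.00638) and WWP2 with miR-140 (-1.21, adjusted p 6.06e-05), where the miRNAs gave 0.996 and 0.03. This count is given without a tally of such hosts and is not read as a result about them.

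**Figure D5:**
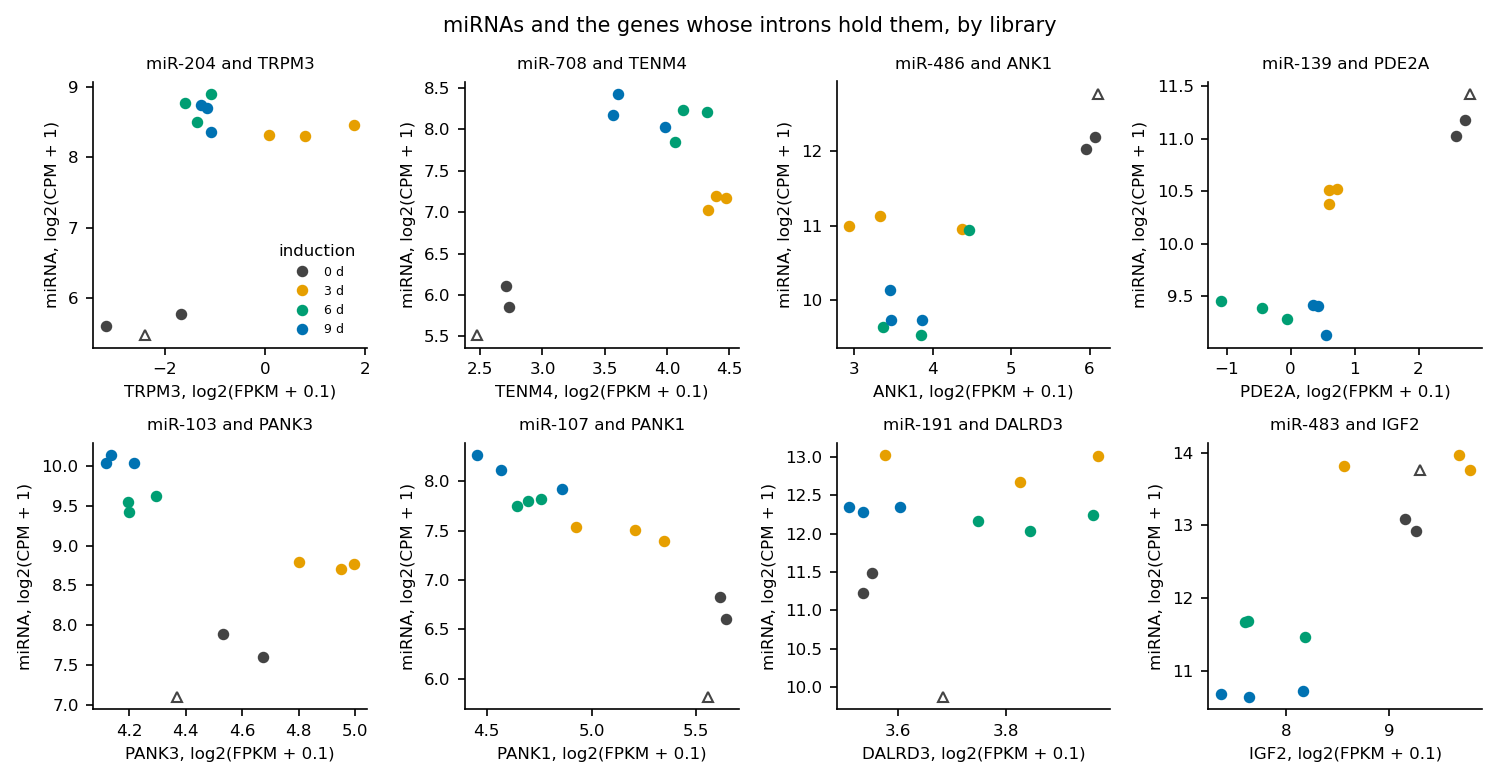
Level of miRNAs, log2(CPM + 1), against that of their listed host gene, log2(FPKM + 0.1), in the same library. Colours are days and the open triangle is 0 d replicate 3. miR-103 is drawn against PANK3, though its deposited position is another hairpin on chromosome 13.

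The panels of miRNA against listed host gene show 4 of the 5 pairs that were called together in the upper part, all but MYH7 and miR-208b. The lower part shows 4 whose listed host was not called.

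Markers check the labelled cell type. Of 7 adipocyte genes listed 5 are in the mRNA table and 3 were higher (beside 3.43% of all mRNAs), none lower, and PPARG and PLIN1 are not found there by name. FABP4, the fatty acid carrier and the most abundant of them, was at 3.36, 3.02 and 3.52 FPKM at 0 d and 7.59 to 94.7 after induction, highest at 3 d, CD36 went from 0.310, 0.310 and 0.300 to 1.35 to 8.60, and ADIPOQ went from 0.0100, 0.0300 and 0.0300 to 0.190 to 1.64. ADIPOQ loses its call with a pseudocount of 1 (0.66). CEBPA and LPL were tested and not called (log2 fold change 0.06 and 0.36). By day, CEBPA gave log2 values of 0.73, -0.18 and -0.36 at 3, 6 and 9 d, and LPL gave 1.198, -0.57 and 0.45. Without 0 d replicate 3 all 42 mRNAs followed one by one, called or not, kept their direction and their side of the threshold. CTDSPL and WWP2 were not among these. Summed FPKM of the list by library was 8.22, 7.87 and 8.67 at 0 d, 111, 100.1 and 106 at 3 d, 30.4, 31.8 and 33.8 at 6 d, 22.1, 22.7 and 27.6 at 9 d. Of the muscle genes 4 of 6 tested were lower (beside 8.87% of all mRNAs) and none higher (MYOD1, MYOG, MYH3 and ACTA1, with PAX7 not found by name), with DES most abundant and sums of 692, 729 and 808 at 0 d, 266, 292 and 290.0 at 3 d, 378, 367 and 410.4 at 6 d, 297, 269 and 295 at 9 d. In every library the sum of the muscle list was above that of the adipocyte list. Of the muscle miRNAs 2 of 11 names, miR-133b and miR-208b, were called lower (beside 6.95% of all tested). The first passes just under the fold threshold without 0 d replicate 3, at -0.98 against -1.01. The sum of the list in CPM, mostly miR-206, was 34754, 26926 and 51481 at 0 d, 30394, 29905 and 34275 at 3 d, 17974, 17548 and 18340.4 at 6 d, 15285, 17393 and 20906 at 9 d. miR-206 was at 20294, 14118 and 38511 CPM at 0 d and 8117 to 22002 (median 10384) later, -0.98 with TMM and not called, -1.09 and called without it, and -0.48 without 0 d replicate 3, its highest. miR-1, with the seed of miR-206, gave -0.62 (-0.42 without that library). In bulk samples fewer cells of a type and less RNA per cell cannot be told apart, and the part of muscle cells in the falls of miR-486 and of the other muscle miRNAs was not tested.

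Of the preadipocyte and fibroblast genes, 1 of 5 tested was higher (THY1, beside 3.43% of all mRNAs) and none lower, COL3A1 was most abundant, and DLK1, a preadipocyte marker, was at or near 0 throughout. Their FPKM summed to 109121, 106742 and 113058 at 0 d, 125161, 129207 and 132104 at 3 d, 103544, 98679 and 97326 at 6 d, 178153, 167461 and 179589.6 at 9 d. Endothelial genes were near 0 but for VWF (1 tested, none called, sums 2.35, 2.56 and 2.07 at 0 d, 1.85, 1.85 and 1.58 at 3 d, 1.97, 1.83 and 2.16 at 6 d, 2.64, 2.06 and 2.61 at 9 d). Of the blood and immune genes PTPRC and HBB were at 0 in every library, CD14 was the most abundant and higher (not with a pseudocount of 1, 0.80), and the sums were 1.05, 0.660 and 0.890 at 0 d, 2.54, 2.89 and 2.66 at 3 d, 1.5, 1.51 and 1.45 at 6 d, 2.46, 2.93 and 1.97 at 9 d. The blood miRNAs are nearly all miR-486 (sums in CPM 4182, 4688 and 7025 at 0 d, 2043, 1992 and 2242 at 3 d, 800.0, 742 and 2082 at 6 d, 1133, 858 and 852 at 9 d), with 2 of 7 called lower (beside 6.95% of all tested), both of them forms of miR-486. The endothelial miR-126 was found in 2 libraries alone, 0 d replicate 3 and 6 d replicate 3, with sums of 0, 0 and 41.8 at 0 d, 0, 0 and 0 at 3 d, 0, 0 and 99.999 at 6 d, 0, 0 and 0 at 9 d. Epithelial miRNAs, mostly miR-205, summed to 14.04, 19.3 and 12.04 at 0 d, 13.6, 10.6 and 9.99 at 3 d, 15.5, 12.6 and 21.1 at 6 d, 9.81, 26.5 and 16.0 at 9 d, and neural ones, mostly miR-9, to 7.02, 6.15 and 2.13 at 0 d, 7.25, 12.3 and 5.68 at 3 d, 9.03, 9.71 and 11.4 at 6 d, 7.88, 8.64 and 10.2 at 9 d, with none called. The liver miRNA miR-122 was called lower (adjusted p 0.00879) with all libraries, and without 0 d replicate 3 no library holds a read of it. For the genes that process and load miRNAs 1 of 13 tested was lower (beside 8.87% of all mRNAs), TNRC6C (not with a pseudocount of 1, -0.88), and none higher, AGO2 was most abundant, LIN28A and LIN28B were at 0, and the sums were 3143, 3141 and 2737 at 0 d, 3683, 3358 and 3111 at 3 d, 2411, 2346 and 2392 at 6 d, 2574, 2551 and 2531 at 9 d. The part of these cell types and genes in the miRNA results was not tested.

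Limits. There are 3 libraries per day and 1 uninduced group for all 3 induced days, and 39 of 75 falls pass the thresholds only with 1 library of it, though 152 of all calls keep their sign without it. Reads of near-identical miRNAs were split by the authors, so single forms are less sure than seed sums. The scaling moves calls near the threshold, and levels are shares of the miRNA reads, not amounts per cell. No mRNA target was tested. The miRNAs not covered by the naming rule, 25 of 103 named, were chosen after their values were seen.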

How the data were processed

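RNA was measured in 12 libraries of bovine intramuscular preadipocytes, 3 each of 0, 3, 6 and 9 d, grouped by the day in their titles. The miRNA raw values deposited by the authors are expected counts, in which reads that fit several miRNAs are split between them; the authors' normalized values are a signal equal to the raw value times 1 factor per library, and the deposited mRNA values are FPKM. 0 value columns of the tables used were left unassigned; the lncRNA and circRNA values were not used. Depth was 1438548 to 4673382 raw counts per library; 3 counts correspond to 0.640 to 2.13 CPM, and lower values were read as bounds. Of 1458 entries, those that repeat a miR_name (113 names) hold identical values and were taken once. Names with at least 10 raw counts over the 12 libraries were rounded and fitted with edgeR 4.0.16 in R 4.3.3 (TMM factors, quasi-likelihood F test), 1 mean per day, contrast of the mean of 3, 6 and 9 d minus 0 d, with p adjusted by Benjamini-Hochberg over all 1079. Standard errors are the log2 fold change over the square root of F. Seed families (bases 2 to 8 summed) were fitted likewise, and FPKM with limma 3.58.1 on log2(FPKM + 0.1) for a mean FPKM of at least 0.1. Alternatives used DESeq2 1.42.0 and other scalings, filters and libraries. The fits were tested on simulated data. Figures were drawn with Python 3.11.15 and Matplotlib 3.10.9.

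The members and lists were chosen with earlier results of these data known. Named are the 10 most abundant, the 10 largest rises and falls without overlap, the 7 of the study's network, the called extremes of lists and of seed families, and called miRNAs of listed host genes.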

Additional observations from a re-analysis of the deposited data

Results flagged for a closer look

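Of 83 named miRNAs called against 0 d, 30 also differed among the induced days by the test of 3, 6 and 9 d, so that 1 fold change does not describe them. The log2 difference of 9 d against 3 d was above 0, at 3.50 for miR-767, 2.54 for miR-105a, 1.35 for miR-210, 1.10 for miR-708, 1.31 for miR-103, 1.91 for miR-181a-3p, 2.36 for miR-143, 1.62 for let-7g-3p, 1.55 for miR-199a-5p, 2.02 for miR-143-5p and 1.23 for miR-10a. The log2 difference of 6 d against 3 d was above 0, at 1.27 for miR-129, 1.12 for miR-210-5p, 1.84 for miR-424-5p, 1.42 for miR-424-3p, 1.41 for miR-503-3p, 1.25 for miR-148a-5p, 2.002 for miR-145, 3.08 for miR-27a-5p, 2.45 for miR-23a-5p and 6.52 for PC-5p-37665_51 (at 0 in all 3 d libraries, so a fitted value and no bound). The log2 difference of 9 d against 6 d was below 0, at -1.93 for miR-503-5p. The log2 difference of 9 d against 3 d was below 0, at -1.22 for miR-133b, -1.01 for miR-7857-3p, -3.17 for miR-483, -1.05 for miR-486b-5p (form with the suffix R+2), -1.15 for miR-139 and -1.46 for miR-1246. The log2 difference of 6 d against 3 d was below 0, at -1.30 for miR-184 and -1.36 for miR-139-3p. In 2 of the 103 named miRNAs 1 induced library lies apart from the other 8 (the gap to its neighbour as a share of the range of the 9): miR-194 (form with the suffix R+1) with 0.561, where 1 of the 3 d libraries is low, and miR-126 with 1, where only 6 d replicate 3 holds reads.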

How the results depend on the processing

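Rises (78) became 73 with 1 induced mean, 76 with DESeq2, 60 without TMM, 64 with RLE factors, 82 without a count filter, 57 with at least 120 counts, 90 with limma on the normalized values, 36 with bovine names alone (fewer tested), 78 with 1 entry per sequence, 82 without the 3 libraries that share zeros, 139 by adjusted p with no fold threshold, and 69 to 103 with each library left out. Falls (75) became, in that order, 42, 103, 93, 100, 88, 89, 91, 37, 70, 58, 113 and 49 to 79; the lowest is without 0 d replicate 3. The entries per sequence and the 3 libraries were chosen after seeing the data. Seed families higher (54) and lower (51) became 46 and 24 with 1 induced mean, 38 and 67 without TMM, and 44 to 75 and 37 to 59 with a library left out. miRNAs that differ among the induced days (81) became 94 without TMM and 56 to 118 with a library left out, the highest without 0 d replicate 3. mRNAs higher and lower (528 and 1366) became 300 and 732 with a pseudocount of 1, 485 and 1356 without a filter, and 509 and 1377 without 0 d replicate 3. The cause of these changes was not tested. Raw values summed over repeated entries of a name were not run, because all repeats hold identical values. Named miRNAs kept direction and side of the threshold in 1982 values, lost the call in 193, gained one in 29 and changed sign in 17, none of which belonged to a call: let-7b from 0.13 to -0.0156 (DESeq2), -0.0396 (library totals), -0.0156 (RLE factors), -0.0317 (at least 120 counts), -0.0211 (limma on the normalized values), -0.128 (bovine names alone); miR-423-3p from -0.03 to 0.0295 (the replicate block), 0.447 (the 3 libraries sharing zeros left out), 0.467 (0 d replicate 3 left out), 0.00733 (3 d replicate 1 left out), 0.0177 (3 d replicate 2 left out), 0.0103 (9 d replicate 3 left out); miR-125a from -0.03 to 0.0502 (0 d replicate 1 left out), 0.0126 (6 d replicate 3 left out); miR-99b from -0.07 to 0.057 (the 3 libraries sharing zeros left out), 0.125 (0 d replicate 3 left out); miR-126-3p from -5.03 to 3.1 (0 d replicate 3 left out). With a library left out these ranged over let-7b 0.0743 to 0.222, miR-423-3p -0.209 to 0.467, miR-125a -0.0878 to 0.0502, miR-99b -0.157 to 0.125, miR-126-3p -8.03 to 3.1.

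Replicate numbers did not pair libraries as a whole (mean correlation 0.0395 for the 18 same-numbered pairs and -0.0179 for others). 5 of the 18 were over 0.1, among them those of 0 d with 6 d (0.153, 0.121 and 0.331 by number). The last joins 0 d replicate 3 and 6 d replicate 3, which share zeros. 0 d replicate 1 correlated more with 6 d replicate 2 (0.191) than with its own number. With the replicate block, rises and falls were 86 and 74, seed families 63 and 50, and miRNAs that differ among the induced days 101. Depth limits miRNAs near 3 counts per library, whose folds are bounds.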

Other observations

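Further abundant miRNAs outside the naming rule were called, and 4 were taken up after their values were seen. miR-7857-3p was at 8496, 8423 and 10468 CPM at 0 d and 2599 to 5938 (median 4088) later (log2 fold change -1.21, adjusted p 1.20e-05, -1.10 without 0 d replicate 3). A form of mir-1285 was at 10507, 10229 and 12479 and then 3873 to 7209 (median 4933), with -1.10 (adjusted p 9.99e-06) and -1.004 without that library. miR-9993b-3p was at 561, 457 and 1562 and then 153 to 476 (median 320.3), with -1.46 (adjusted p 0.00513) and -0.70, not called, without that library. miR-664b was at 200.2, 149.7 and 145 and then 529.9 to 919.9 (median 683), with 2.09 (adjusted p 1.18e-06) and 2.01 without that library.

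The 19 miRNAs at 0 in exactly 0 d replicate 3, 6 d replicate 3 and 9 d replicate 2 hold, beside 8 forms of miR-1260a, forms of miR-2285, mir-6239, mir-6240, miR-9933 and miR-300 and 3 candidates found on the genome alone. The highest, PC-3p-5541, had 51.0 to 151 raw counts in each of the other 9 libraries. Of the set 0 were called lower and 0 higher with all libraries, where 6.95% and 7.23% of all tested were. Without 0 d replicate 3, 2 were lower, where 4.54% of all tested were.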
